A study of Homo sapiens with 6 samples.

Results

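Transcripts of the Mediator complex and of enhancer coactivators were compared between K562 cells with RUNX1 R320* and K562 cells with wild-type RUNX1 (WT). The members were the protein-coding genes named MED plus a number, with or without a final L, together with CDK8, CDK19, CCNC, EP300, CREBBP, YY1, KMT2C, KMT2D, KDM6A, NCOA1, NCOA2 and NCOA3. The name rule gave 42 genes, 33 of Mediator and 9 other coactivators or factors, among 60131 genes in the RPKM table and 28395 in the normalized counts, and all 42 were found in both. K562 is a long-established line of human leukaemia cells that keep features of red-cell and platelet precursors. There were 3 libraries of R320* cells, whose RUNX1 carries a premature stop codon in its C-terminal part, and 3 of WT cells, all of total RNA from the same line in the same serum-containing medium. The sources used here do not say how the change was introduced, whether the R320* cells are 1 clone, or whether libraries of a genotype are separate cultures, so p-values measure the spread between these libraries, which may be technical.

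Mediator is a large complex that carries signals from transcription factors bound at enhancers to RNA polymerase II at promoters. Its head and middle modules contact the polymerase, its tail binds activators, MED14 joins the modules, and a detachable kinase module holds cyclin C, the kinase CDK8 or its relative CDK19, MED12 or MED12L, and MED13 or MED13L. EP300 and CREBBP acetylate histones at active enhancers, KMT2C and KMT2D methylate histone H3 there, KDM6A removes a repressive methyl mark, and NCOA1, NCOA2 and NCOA3 form the p160 family that links nuclear receptors to EP300 and CREBBP. YY1 is a DNA-binding factor found at enhancers and promoters that contact each other. The series was set up around such contacts, as its title names changes in enhancer-promoter interactions.

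Levels are the authors' normalized counts unless RPKM, reads scaled by gene length and library size, is named. Log2 fold changes are differences in log2(normalized count + 1), R320* minus WT, from a limma fit over 14299 genes with 10 or more normalized counts in 3 or more libraries, and a gene was called below a Benjamini-Hochberg adjusted p of 0.05. A mean is given ± SD with n = 3 libraries per genotype. The libraries held between 30064538 and 31306435 assigned reads in R320* and between 29058471 and 30595857 in WT. The 8 K562 markers had reads in every library, with a summed level between 57547 and 68108 in R320* and between 58558 and 60272 in WT. Within that list NFE2 was 5782 to 6278 in R320* and 11810.03 to 12061 in WT, and GATA1 was 5946 to 6351 in R320* and 8774 to 9119 in WT. TAL1 was 4628 to 4710.2 in R320* and 3089.9 to 3145 in WT, and HBG1 was 17295 to 25851 in R320* and 12844 to 13990.3 in WT. These genes did not overlap between genotypes, nor did KLF1 and LMO2, which were higher in R320*, and HBE1, which was lower. The 11 markers of other cell types summed to between 8503 and 8773 in R320* and between 6615 and 6742 in WT. EPCAM, COL1A2 and CD3D made up most of that sum. EPCAM, an epithelial surface protein, was at 4989 to 5274 in R320* and 2292 to 2348 in WT, while COL1A2, a collagen chain, was 2602 to 2805 in R320* and 3347 to 3431 in WT, and CD3D, a T-cell receptor subunit, was 419 to 515 in R320* and 723 to 731 in WT. CDH5 had no read in any library, and MS4A1 and KRT5 had none in WT. MS4A1 and KRT5 had reads in R320* replicate 3 alone, at 1.91 and 21 normalized counts. The part of these genes in the results was not tested.

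Of the 42 members 41 passed the filter, and 20 were called, 7 higher and 13 lower in R320*. That is 48.8% of the members tested, where 53.7% of all genes tested were called, so the share called was near the background. By direction, 17.1% of the members were higher and 31.7% lower, beside 26.4% and 27.4% of all genes. The size of a change, as the median absolute log2 fold change, was 0.16 over the members and 0.27 over all genes. These sets were not matched for level, as the lowest mean of a tested member was 101 (MED31 in WT) and the filter admitted genes from 10. Of the 20 called members 11 differed by less than 1.25-fold. Only 5 of the 41, or 12.2%, were called with at least a 1.5-fold difference, beside 20.3% of all genes: NCOA2, CDK19 and NCOA1 were lower, MED30 and MED11 higher. The median log2 fold change was -0.01 over the members and 0.01 over all genes. Libraries of the genotypes did not overlap for 22 members, 9 higher and 13 lower in R320*, beside 29.6% and 30.2% of all genes (59.8% in all). In bulk RNA, fewer cells that express a gene and less RNA per cell cannot be told apart.

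**Figure D1:**
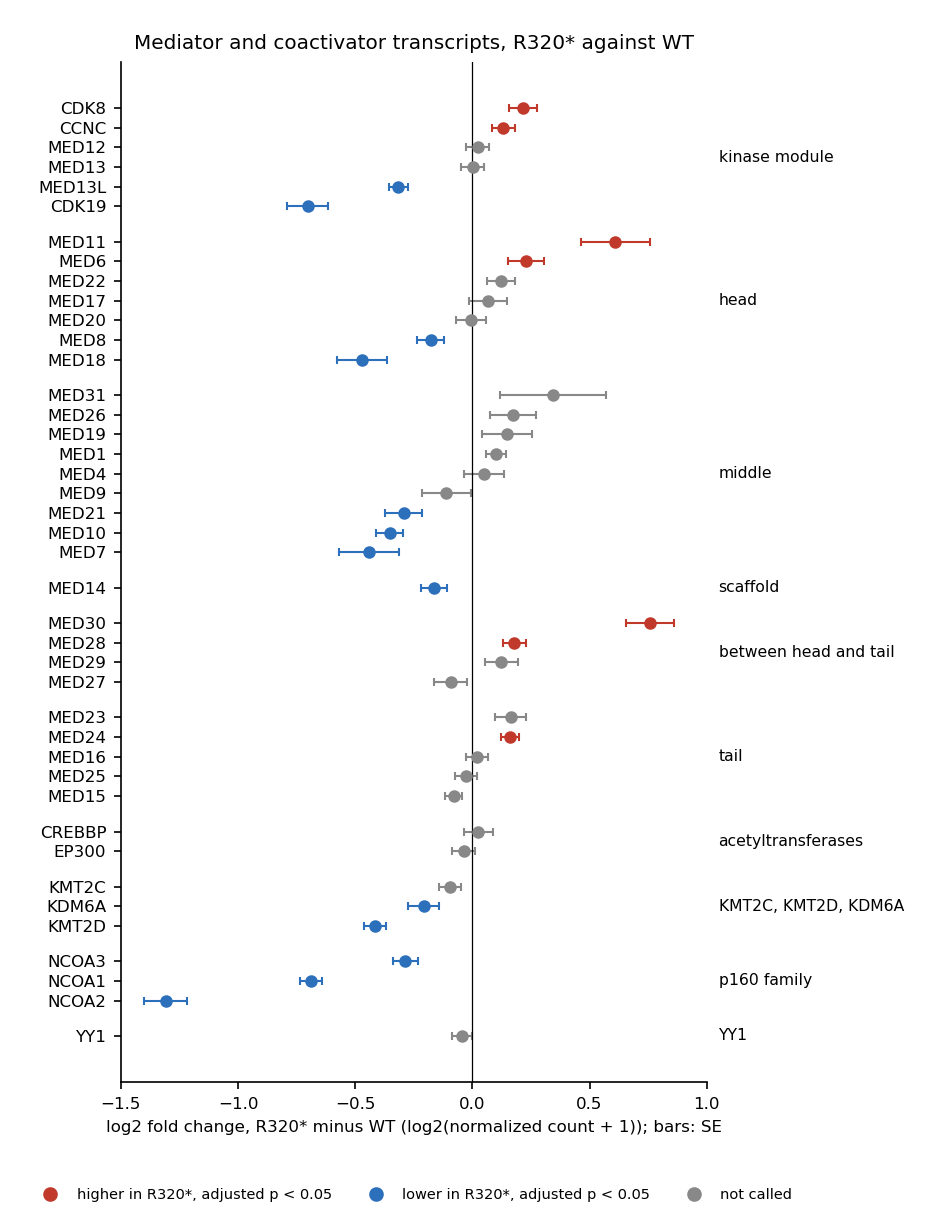
Log2 fold change of each of the 41 members tested, as R320* minus WT in log2(normalized count + 1), grouped by module or family. Points are limma estimates, bars are SE, and colours give the call at an adjusted p below 0.05. The p160 family lies to the left of 0, while EP300, CREBBP and YY1 lie close to 0 and the kinase module spans -0.70 to 0.21.

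In the kinase module 2 of 6 tested genes were higher and 2 lower, beside 26.4% of all genes higher and 27.4% lower. Of its first pair of alternative subunits, the kinase CDK8 was higher and its relative CDK19 lower. CDK8 (chr13:26254129-26405238, GRCh38) had 1597, 1719.6 and 1506 in the R320* libraries, against 1369, 1423 and 1358 in the WT libraries. The groups did not overlap, and CDK8 averaged 1607 ± 107 in R320* and 1383 ± 34.6 in WT, a 1.16-fold difference (log2 fold change 0.21 with SE 0.06, limma adjusted p = 0.00572). CDK19 (chr6:110609978-110815855) had 422, 465 and 515 in the R320* libraries, against 776, 782 and 719.99 in the WT libraries. Its highest R320* library stayed below its lowest WT library, with means of 467 ± 46.5 in R320* and 759 ± 34.1 in WT, 1.63-fold lower in R320* (log2 fold change -0.70 with SE 0.09, limma adjusted p = 4.69e-06). The CDK19 span overlaps AMD1, which was 4206 in R320* and 4138 in WT (log2 fold change 0.02, limma adjusted p = 0.687), and the sources used here do not say whether counting used strand.

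RPKM is scaled by length for comparison between genes, though the length used is not given with the deposited values. In RPKM, CDK8 was 21.8 ± 0.973 in R320* and 17.9 ± 0.432 in WT (log2 fold change 0.29, limma adjusted p = 0.00973) and CDK19 was 13.5 ± 1.06 in R320* and 19.02 ± 0.972 in WT (log2 fold change -0.50, limma adjusted p = 0.00384). The ratio of CDK19 to CDK8 was 0.596, 0.5897 and 0.669 in the R320* libraries, against 1.07, 1.12 and 1.01 in the WT libraries. CDK19 thus stood below CDK8 in R320* and near 1 to 1 with it in WT, with no overlap of the ratios between genotypes. An exact two-sided permutation test of the log2 ratio gave p = 0.1, the smallest p that 3 against 3 libraries allow (0.12 adjusted over the 6 pairs of relatives tested here).

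Since these relatives moved in opposite directions, the 250 bases before each RefSeq start (GRCh38.p14) are shown for them, with any letters TGTGGT or TGCGGT in capitals, on either strand (ACCACA or ACCGCA when read on the other). They are core letters that RUNX proteins recognise. CDK19 lies at chr6:110815856-110816105, minus strand, CDK8 at chr13:26253879-26254128, plus strand, and MED10, a middle-module subunit that fell, at chr5:6378548-6378797, minus strand. MED10 is not a relative of these kinases, but it and CDK19 are the 2 lower members with a match. Most lower members with a window held no match and are not shown, nor is MED24, a higher member with a match. The sequences shown therefore do not stand for the members.
CDK19: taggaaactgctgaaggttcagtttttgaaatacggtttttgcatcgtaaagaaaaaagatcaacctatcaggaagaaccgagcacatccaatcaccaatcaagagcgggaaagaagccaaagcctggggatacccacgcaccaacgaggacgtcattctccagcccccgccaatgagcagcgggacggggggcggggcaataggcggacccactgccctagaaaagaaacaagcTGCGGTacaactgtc
CDK8: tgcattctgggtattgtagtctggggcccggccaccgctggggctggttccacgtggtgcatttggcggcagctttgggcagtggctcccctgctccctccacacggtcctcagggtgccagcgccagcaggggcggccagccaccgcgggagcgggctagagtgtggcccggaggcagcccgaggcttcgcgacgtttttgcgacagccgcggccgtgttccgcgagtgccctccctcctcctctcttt
MED10: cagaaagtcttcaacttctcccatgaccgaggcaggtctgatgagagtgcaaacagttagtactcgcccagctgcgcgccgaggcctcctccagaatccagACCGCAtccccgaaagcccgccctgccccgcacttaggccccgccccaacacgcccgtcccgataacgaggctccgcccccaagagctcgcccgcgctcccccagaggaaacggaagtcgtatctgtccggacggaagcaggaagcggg
CDK19 held 1 match, starting 15 bases before its start, MED10 held 1, starting 149 bases before, and CDK8 held none in these letters. A RefSeq window of 250 bases before to 50 after the start was matched for 33 of the 42 members, and 8 of the 33 (24.2%) held a match, beside 19.4% of 27305 genes and 18.3% of the 11018 tested genes with a window. By call, the match was present in 1 of 4 members that were higher, 2 of 9 that were lower and 5 of 19 that were not called, and it was absent from the window of MED12L. The windows of the members had a median of 61.7% G and C and 24 CpG pairs, beside 65.0% and 26 for the tested genes. A match of these letters is a description of sequence and was not measured as binding.

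Of the next pair of alternative subunits, MED13L fell and MED13 did not pass the test. MED13L (chr12:115958576-116277693), which with MED13 ties the kinase module to the core, had 3990.5, 3982 and 3776 in the R320* libraries, against 4881, 4858 and 4880.1 in the WT libraries. All R320* values were lower, by 1.24-fold on average (log2 fold change -0.32 with SE 0.04, limma adjusted p = 4.09e-06). MED13 had 3742, 3886 and 3455 in the R320* libraries, against 3901, 3587 and 3588 in the WT libraries, and the groups overlapped (log2 fold change 0.00, 95% interval -0.11 to 0.11, limma adjusted p = 0.995). The RPKM ratio of MED13L to MED13 was 1.46, 1.38 and 1.48 in the R320* libraries, against 1.68, 1.75 and 1.699 in the WT libraries (exact permutation p = 0.1, 0.12 adjusted). MED13L sits among genes that were lower as a group, as described with the positions.

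CCNC was slightly higher and MED12 did not pass the test. CCNC, cyclin C, had 3106, 2941 and 2815 in the R320* libraries, against 2774, 2593 and 2718 in the WT libraries, which did not overlap (log2 fold change 0.13 with SE 0.05, limma adjusted p = 0.0306). Its call was lost without R320* replicate 1 (limma adjusted p = 0.137), R320* replicate 2 (0.0698), WT replicate 2 (0.132) or WT replicate 3 (0.0561) and without the intensity trend (0.109), in a range of 0.00883 to 0.137 over its alternatives. The CCNC span overlaps TSTD3 (log2 fold change -0.15, limma adjusted p = 0.486). MED12, which activates the kinase, had 2149, 2094 and 2188 in the R320* libraries, against 2191, 2021 and 2123 in the WT libraries, and its groups overlapped (log2 fold change 0.02, 95% interval -0.08 to 0.13, limma adjusted p = 0.728). MED12L, the relative of MED12, had 2 reads in R320* replicate 3 and 0 in every other library, under the floor of 3 reads per library, and was not tested. Its RPKM was listed at 0 in all but R320* replicate 3, where it was 0.00955.

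**Figure D2:**
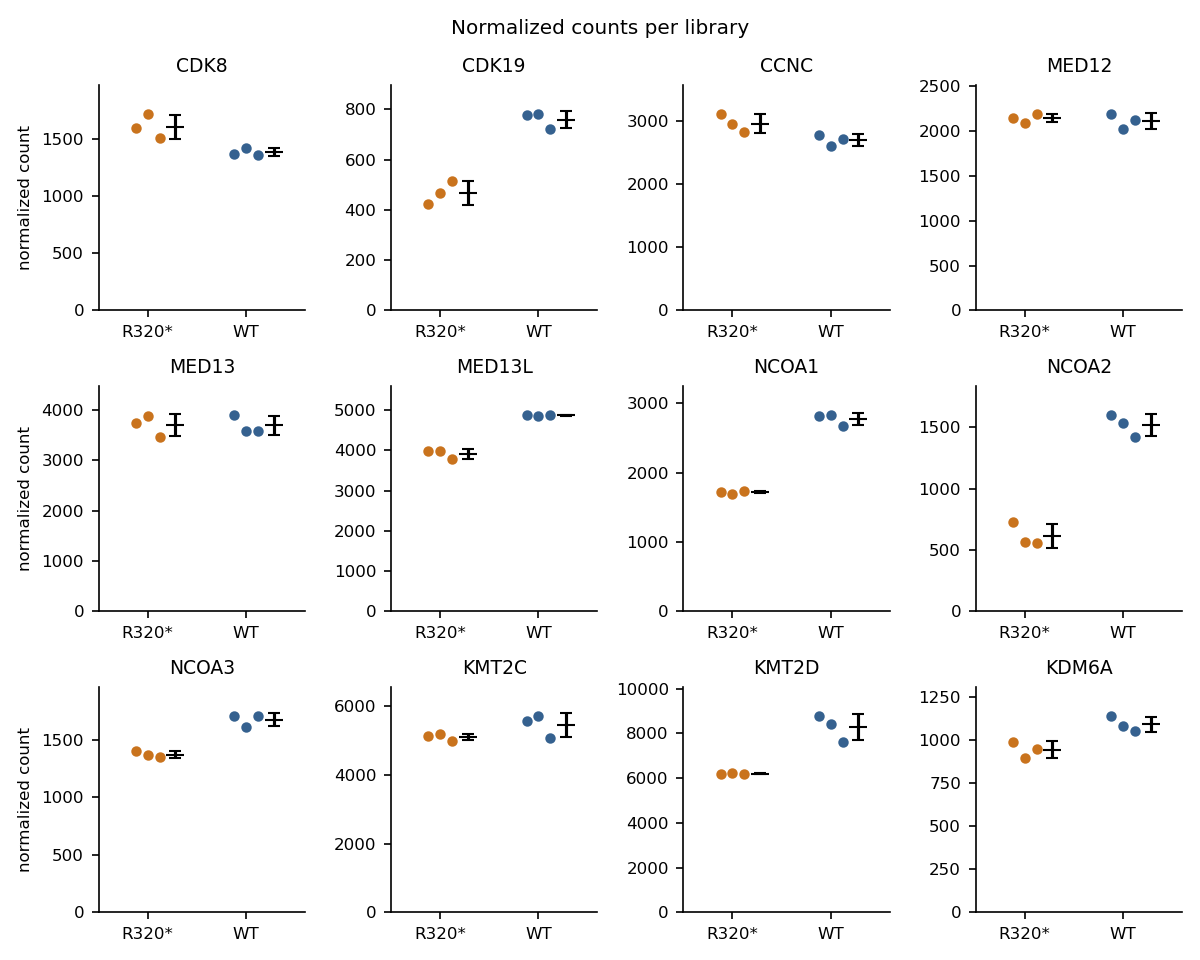
Normalized count of 12 members in each library, R320* on the left and WT on the right of each panel. Points are libraries, the bar beside them is mean ± SD (n = 3), and each vertical axis starts at 0. CDK19, NCOA1 and NCOA2 separate widely by genotype, CDK8 and CCNC are slightly higher in R320*, and MED12 and MED13 overlap.

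Among 7 head-module genes, whose products contact RNA polymerase II, 2 were higher and 2 lower, beside 26.4% of all genes higher and 27.4% lower. MED11 had 197, 205 and 220.1 in the R320* libraries, against 124, 134 and 149.7 in the WT libraries. Every R320* value was higher, by 1.53-fold on average (log2 fold change 0.61 with SE 0.15, limma adjusted p = 0.00241), and CXCL16, whose span it overlaps, was 25.8 in R320* and 33.6 in WT (log2 fold change -0.44, limma adjusted p = 0.318). MED6 had 677, 655 and 653 in the R320* libraries, against 570.1, 575 and 548 in the WT libraries (log2 fold change 0.23 with SE 0.08, limma adjusted p = 0.0186), again without overlap. MED18 had 601, 461 and 444 in the R320* libraries, against 723, 638 and 713 in the WT libraries (log2 fold change -0.47 with SE 0.11, limma adjusted p = 0.00138). The R320* values were lower in each library, but they were spread from 444 to 601, and in RPKM MED18 missed the threshold (log2 fold change -0.46, limma adjusted p = 0.0635, within 3.83e-05 to 0.108 over its alternatives). MED8 had 1230.5, 1158 and 1151 in the R320* libraries, against 1302, 1382 and 1321 in the WT libraries, a non-overlapping fall of 1.13-fold on average (log2 fold change -0.18 with SE 0.06, limma adjusted p = 0.0164).

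MED6 lost its call without R320* replicate 1 (limma adjusted p = 0.0571) or WT replicate 3 (0.0584), within 0.00453 to 0.0584. MED8 lost its call without R320* replicate 2 (0.0558) or WT replicate 2 (0.0714) and in RPKM (limma adjusted p = 0.0974), within 0.0128 to 0.154. MED17, MED20 and MED22 were not called, with log2 fold changes between -0.01 and 0.12. MED22 reached the threshold without R320* replicate 1 (limma adjusted p = 0.0192) or with upper quartile scaling (0.0369), within 0.0192 to 0.47.

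In the middle module 3 of 9 genes were lower and 0 higher, beside 26.4% of all genes higher and 27.4% lower. MED10 had 1213, 1123 and 1142 in the R320* libraries, against 1524, 1436 and 1484 in the WT libraries (log2 fold change -0.35 with SE 0.06, limma adjusted p = 6.96e-05), so that all R320* libraries were below all WT libraries. MED21, a small subunit that pairs with MED7, had 831, 878 and 767 in the R320* libraries, against 1102, 1015 and 923 in the WT libraries (log2 fold change -0.29 with SE 0.08, limma adjusted p = 0.00445). MED7 had 315, 312 and 238 in the R320* libraries, against 349, 391 and 431 in the WT libraries (log2 fold change -0.44 with SE 0.13, limma adjusted p = 0.00803). Both partners were lower without overlap, and MED7 missed the threshold without WT replicate 3 (limma adjusted p = 0.0515, within 0.0053 to 0.0515).

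MED1, the subunit through which nuclear receptors bind Mediator, had 4122, 4115 and 3969 in the R320* libraries, against 3885, 3855 and 3653 in the WT libraries. The R320* values were all higher, but the difference of 0.10 on the log2 scale missed the threshold (limma adjusted p = 0.0532). It passed without R320* replicate 3 (limma adjusted p = 0.0351) or with upper quartile scaling (0.0145). It also passed with a filter of at least 50 (0.0479) or a block for the replicate number (0.0406), within 0.0145 to 0.321. MED4, MED9, MED19, MED26 and MED31 were not called, with log2 fold changes between -0.11 and 0.34. MED26 passed without R320* replicate 1 (limma adjusted p = 0.044) or with quantile normalization (0.0441), within 0.044 to 0.446, and MED31 without WT replicate 3 (0.0361, within 0.0361 to 0.706). Counts of MED31 were low, at 119, 136 and 116 in the R320* libraries, against 94.1, 69.8 and 139 in the WT libraries. The MED31 span overlaps TXNDC17, which was lower (log2 fold change -0.38, limma adjusted p = 0.00271).

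MED14, the scaffold, had 1454, 1553 and 1498 in the R320* libraries, against 1752, 1704 and 1595 in the WT libraries, a small fall without overlap (log2 fold change -0.16 with SE 0.06, limma adjusted p = 0.0198). That call was lost without R320* replicate 1 (limma adjusted p = 0.0682), WT replicate 1 (0.0911) or WT replicate 2 (0.0631), with upper quartile scaling (0.0561), without the intensity trend (0.058) and in RPKM (log2 fold change -0.10, limma adjusted p = 0.52), within 0.0119 to 0.585.

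Of the 4 subunits between head and tail, MED30 and MED28 were higher, beside 26.4% of all genes called higher. MED30 (chr8:117520713-117540262) had 542, 553 and 516 in the R320* libraries, against 316, 355 and 284 in the WT libraries. It averaged 537 ± 18.6 in R320* and 318 ± 35.5 in WT, a 1.69-fold difference and the highest log2 fold change among the members (log2 fold change 0.76 with SE 0.10, limma adjusted p = 1.06e-05). MED28 had 3112, 3435 and 3213 in the R320* libraries, against 2980.1, 2858 and 2779 in the WT libraries (log2 fold change 0.18 with SE 0.05, limma adjusted p = 0.00482). Its difference was larger in RPKM, at 55.1 ± 10.1 in R320* and 35.8 ± 3.43 in WT (log2 fold change 0.61, limma adjusted p = 0.0152), and the groups overlapped in neither table. The MED28 span overlaps FAM184B (log2 fold change 0.09, limma adjusted p = 0.472), and whether the 2 genes share reads was not tested. MED27 and MED29 were not called, at -0.09 and 0.12 on the log2 scale.

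In the tail 1 of 5 genes was higher and 0 lower, beside 26.4% of all genes higher and 27.4% lower. MED24 had 5381, 5159 and 5443 in the R320* libraries, against 4825, 4694 and 4767 in the WT libraries (log2 fold change 0.16 with SE 0.04, limma adjusted p = 0.00197), and its call was lost in RPKM (limma adjusted p = 0.077, within 0.000428 to 0.114). MED15, MED16, MED23 and MED25 were not called, with log2 fold changes between -0.08 and 0.16. MED23 was close to the threshold (limma adjusted p = 0.0525), and it was called in RPKM (log2 fold change 0.33, limma adjusted p = 0.0277) and without R320* replicate 3 (0.0387) or WT replicate 2 (0.0196). It also passed with a pseudocount of 5, a filter of at least 50, upper quartile scaling, quantile normalization or a block for the replicate number (0.0258). Its limma adjusted p was within 0.0196 to 0.262 over its alternatives. MED15 passed as a fall without R320* replicate 3 (0.042) or WT replicate 2 (0.0491) and with quantile normalization (0.00977), within 0.00977 to 0.288.

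All 3 p160 coactivators fell in R320* cells, beside 27.4% of all genes called lower. NCOA2 (chr8:70109782-70456446), also called GRIP1 or TIF2, had 729, 563 and 557 in the R320* libraries, against 1600.4, 1532 and 1423 in the WT libraries. It averaged 616 ± 98.1 in R320* and 1519 ± 89.6 in WT, 2.48-fold lower in R320* (log2 fold change -1.31 with SE 0.09, limma adjusted p = 4.24e-09). NCOA1 (chr2:24491254-24770702), the steroid receptor coactivator, had 1719, 1699 and 1733 in the R320* libraries, against 2813, 2831 and 2667 in the WT libraries. The R320* libraries lay within a narrow band, 1.61-fold below WT on average (log2 fold change -0.69 with SE 0.05, limma adjusted p = 3.03e-09). NCOA3 (chr20:47501887-47656872) had 1404, 1363 and 1346 in the R320* libraries, against 1704, 1612 and 1706 in the WT libraries, 1.22-fold lower without overlap (log2 fold change -0.29 with SE 0.05, limma adjusted p = 0.000242).

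The p160 genes were lower in RPKM as well, with NCOA2 at 3.005 ± 0.196 in R320* and 7.05 ± 0.252 in WT, NCOA1 at 10.2 ± 0.0475 in R320* and 16.8 ± 0.727 in WT and NCOA3 at 6.29 ± 0.147 in R320* and 7.57 ± 0.0576 in WT (log2 fold changes -1.20, -0.72 and -0.26, limma adjusted p = 0.000305, 0.000325 and 0.0404). NCOA3 missed the threshold in RPKM with a pseudocount of 1 (limma adjusted p = 0.0504) or no filter (0.0536), within 0.000177 to 0.0536 over its alternatives. Their proportions shifted. The RPKM ratio of NCOA2 to NCOA1 was 0.315, 0.289 and 0.281 in the R320* libraries, against 0.424, 0.441 and 0.394 in the WT libraries, and that of NCOA3 to NCOA1 was 0.625, 0.602 and 0.625 in the R320* libraries, against 0.436, 0.476 and 0.4399 in the WT libraries. Both ratios separated the genotypes (exact permutation p = 0.1 each, 0.12 adjusted), so that NCOA1 was the most abundant of the 3 per length in both genotypes but by a smaller margin over NCOA3 in R320*.

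The histone acetyltransferases that p160 proteins recruit did not pass the test. EP300 had 3104, 3096 and 3099 in the R320* libraries, against 3300.1, 3291 and 2964 in the WT libraries, and its groups overlapped (log2 fold change -0.04, 95% interval -0.14 to 0.06, limma adjusted p = 0.535). CREBBP had 2404, 2081 and 2217 in the R320* libraries, against 2357, 2167 and 2058 in the WT libraries, also overlapping (log2 fold change 0.03, 95% interval -0.10 to 0.15, limma adjusted p = 0.747). Each interval stays inside a 1.25-fold difference in either direction. The RPKM ratio of CREBBP to EP300 was 0.597, 0.5101 and 0.79996 in the R320* libraries, against 0.534, 0.509 and 0.646 in the WT libraries (exact permutation p = 0.6). YY1 had 3143, 3310.2 and 3182 in the R320* libraries, against 3288, 3296 and 3356 in the WT libraries, with overlap (log2 fold change -0.05, 95% interval -0.13 to 0.04, limma adjusted p = 0.383).

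Of the enhancer methyltransferase genes, KMT2D fell and KMT2C did not pass the test. KMT2D (chr12:49018978-49060794) had 6168, 6215 and 6191 in the R320* libraries, against 8777, 8419 and 7626 in the WT libraries. The R320* libraries lay close together and below all WT libraries, by 1.33-fold on average (log2 fold change -0.42 with SE 0.05, limma adjusted p = 8.81e-07). KMT2C had 5106, 5166 and 4982 in the R320* libraries, against 5558, 5702 and 5058 in the WT libraries, with overlap (log2 fold change -0.10, 95% interval -0.19 to -0.00, limma adjusted p = 0.0858). It passed as a fall without WT replicate 3 (limma adjusted p = 0.01) or with quantile normalization (0.0458). With a block for the replicate number KMT2C passed too (0.0456), within 0.01 to 0.853 over its alternatives. The RPKM ratio of KMT2D to KMT2C was 1.03, 1.08 and 1.001 in the R320* libraries, against 1.73, 1.41 and 1.504 in the WT libraries (exact permutation p = 0.1, 0.12 adjusted).

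KDM6A, their demethylase partner, had 990.3, 894 and 951 in the R320* libraries, against 1140.1, 1082 and 1051 in the WT libraries, a fall without overlap (log2 fold change -0.21 with SE 0.07, limma adjusted p = 0.0139). The RPKM table went the other way, with 12.7, 10.1 and 11.5 RPKM in the R320* libraries, against 10.3, 9.71 and 9.53 RPKM in the WT libraries (log2 fold change 0.21, limma adjusted p = 0.15). The normalized-count call was also lost without R320* replicate 2 (limma adjusted p = 0.069) or WT replicate 1 (0.0669) and with quantile normalization (0.0557), within 0.0107 to 0.217. In RPKM the groups overlapped, and the tables did not share a direction for KDM6A.

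Levels per length were spread widely among subunits of the same complex. Without MED12L, RPKM means ran from 3.005 (NCOA2) to 86.2 (MED15) in R320* and from 4.49 (MED26) to 91.4 (MED15) in WT. MED15, MED24 and CCNC held the 3 highest places in both genotypes, with 86.2 ± 0.794 in R320* and 91.4 ± 0.519 in WT for MED15, 84.1 ± 2.63 in R320* and 78.2 ± 0.265 in WT for MED24 and 82.5 ± 2.58 in R320* and 70.1 ± 3.64 in WT for CCNC. MED24 and CCNC did not differ beyond their spread in R320*. MED28 was next in R320* at 55.1 ± 10.1, ahead of MED10 at 45.03 ± 0.673, and MED10 was next in WT at 57.5 ± 2.61. The place in the order of the 42 moved most for NCOA1, 36 in R320* and 19 in WT. MED30 was at place 12 in R320* and 21 in WT, and CDK19 at place 25 in R320* and 16 in WT. In WT, CDK19, CDK8, NCOA1 and MED30 lay between 16.5 and 19.02 RPKM, and the SD of MED30 (2.74) exceeded its distance to each of the others. RPKM columns summed to between 721735 and 764073 in R320* and between 764578 and 786389 in WT, so the deposited values do not share a fixed total.

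**Figure D3:**
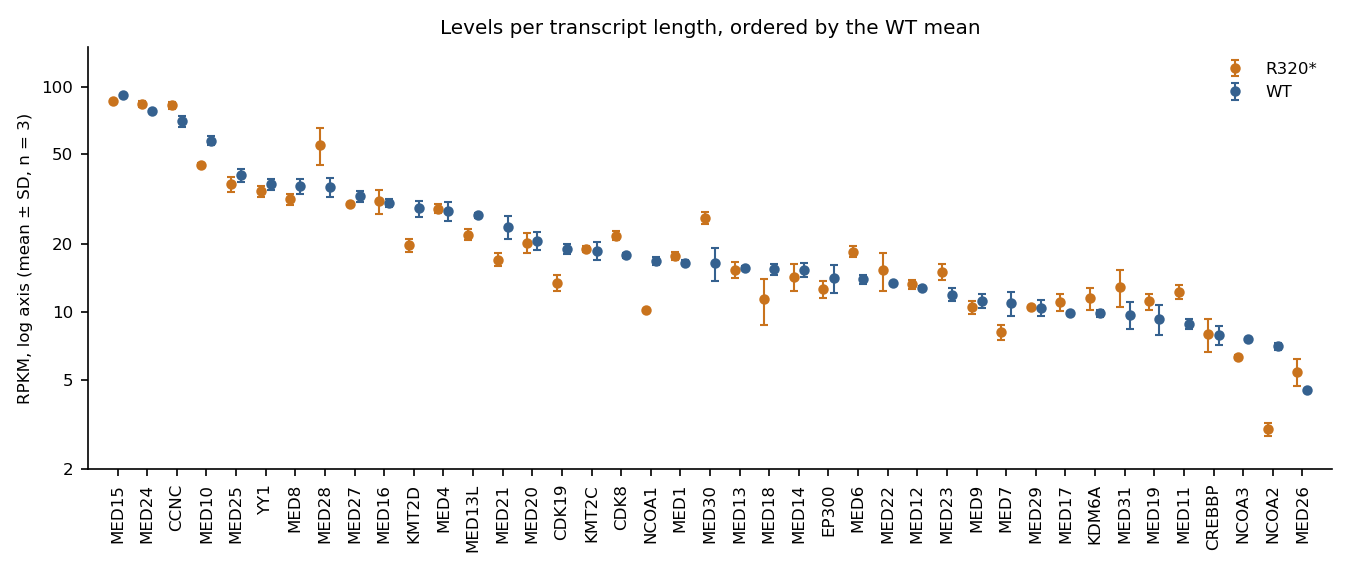
RPKM of 41 members (MED12L, at or near 0, is left out) on a log axis, R320* left of WT for each gene and genes ordered by the WT mean. Points are means and bars SD of 3 libraries. MED15, MED24 and CCNC lead in both genotypes, and NCOA1 and NCOA2 stand apart by genotype.

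The RPKM fit over 17769 genes with at least 0.5 RPKM in at least 3 libraries tested the same 41 members and called 16, 7 higher and 9 lower. That is 39.0%, beside 31.9% of all genes tested in RPKM. Of the 20 members called in normalized counts, 15 were called in the same direction in RPKM, and 19 had the same sign, the exception being KDM6A. The 5 not called in RPKM were KDM6A, MED8, MED14, MED18 and MED24, and MED23 was called in RPKM alone. The tables come from the same libraries, so the second is not an independent replication.

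The members' fold changes were set beside those of the genes around them. For each member, the median log2 fold change of up to 25 tested genes on either side was taken. It was within 0.1 of 0 for 27 of 41 members and ran from -0.58 to 0.27 over all. Of all genes tested, 27.4% were called lower and 26.4% higher. Around KMT2D on chromosome 12 the median was -0.58, with 36 of 50 neighbours called lower and 3 higher, and the log2 fold change of KMT2D itself was -0.42. Around MED13L on the same chromosome it was -0.45, with 39 of 50 lower and 1 higher, beside -0.32 for MED13L. Around MED7 on chromosome 5 it was -0.34, with 33 of 50 lower and 5 higher, beside -0.44 for MED7. These 3 falls thus had the direction of most genes around them, and a change of the gene alone and one of its surroundings cannot be told apart here.

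NCOA2, CDK19, NCOA1, MED11 and MED30 lay farther from 0 than the median of their neighbours. They are the 5 members called with at least a 1.5-fold difference, so their choice by size made this likely. The median around NCOA2 was -0.15 (gene -1.31), around CDK19 -0.12 (gene -0.70), around NCOA1 -0.03 (gene -0.69) and around MED11 0.03 (gene 0.61). Of 50 neighbours, 22 were lower and 7 higher around NCOA2, and 19 lower and 6 higher around CDK19. Over all genes these shares were 27.4% lower and 26.4% higher. Around NCOA1 14 were lower and 10 higher, and around MED11 8 were lower and 14 higher. MED30 on chromosome 8 had neighbours at 0.19 (23 of 50 higher and 8 lower) and stood at 0.76 itself. NCOA3 on chromosome 20 fell by 0.29 on the log2 scale in a stretch whose median was 0.27, and MED8 on chromosome 1 fell by 0.18 where the median was 0.19. These differences from neighbours are descriptions and were not tested.

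**Figure D4:**
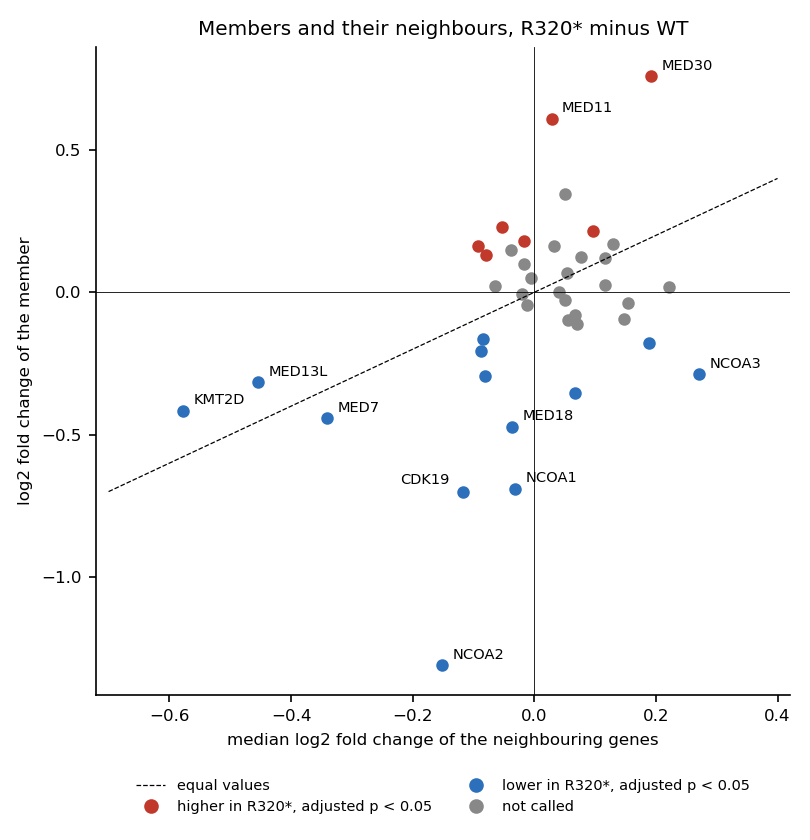
Log2 fold change of each of the 41 members tested against the median log2 fold change of its neighbours (up to 25 tested genes on either side), R320* minus WT. The dashed line marks equal values. KMT2D, MED13L and MED7 lie near the line at the left, while NCOA2, CDK19, NCOA1, MED11 and MED30 lie away from it.

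Other genes of enhancer and polymerase function were tested in 6 lists. Of 63 tested genes, 28 were higher and 15 lower in R320*, 68.3% in all, beside 53.7% of all genes. The list of p160 partners and other acetyltransferases had 9 of 9 higher, beside 26.4% of all genes, with a median log2 fold change of 0.22. The p160 genes themselves fell. That list leaves out the members EP300 and CREBBP, which p160 proteins recruit and which were not called (log2 fold changes -0.04 and 0.03). CARM1, the arginine methyltransferase that p160 proteins recruit, averaged 5862 ± 203 in R320* and 4372 ± 119 in WT (log2 fold change 0.42 with SE 0.04, limma adjusted p = 1.88e-07), and KAT2A, the acetyltransferase of the SAGA complex, 5097 ± 70.96 in R320* and 3863 ± 91.05 in WT (log2 fold change 0.40 with SE 0.04, limma adjusted p = 2.18e-07). The count of 9 was 2 in RPKM, 5 without WT replicate 3 and 5 without the intensity trend.

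The list of other KMT2-family methyltransferases and their partners had 6 of 11 higher and 2 lower (median 0.12). Its higher count was 3 without R320* replicate 2 and 2 in RPKM. Both lower genes, SETD1B and KMT2A, are methyltransferases themselves, as are SETD1A and KMT2B, which were higher. WDR5, a core subunit shared by these enzymes, averaged 4299.6 ± 73.97 in R320* and 3329.5 ± 26.1 in WT (log2 fold change 0.37, limma adjusted p = 6.60e-07), and SETD1B averaged 1555 ± 42.6 in R320* and 2114 ± 34.4 in WT (log2 fold change -0.44, limma adjusted p = 1.14e-06). Among 13 SWI/SNF chromatin remodelling genes 4 were higher and 5 lower (median -0.09). The ATPase SMARCA2 averaged 1213 ± 61.5 in R320* and 2524 ± 26.5 in WT (log2 fold change -1.06, limma adjusted p = 6.16e-11) and ARID2 1191 ± 13.4 in R320* and 2009.7 ± 52.3 in WT (log2 fold change -0.75, limma adjusted p = 3.27e-09). SMARCB1 was not tested, since it averaged 0.654 normalized counts in R320* and 0 in WT, although its RPKM was 49.5 ± 3.08 in R320* and 50.1 ± 1.45 in WT.

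Among 15 genes that hold RNA polymerase II near promoters or release it, 5 were higher and 4 lower (median -0.01), with 2 higher in RPKM. The 5 higher genes were CCNT2, ELL2 and NELFA, NELFB and NELFCD of the factor that holds paused polymerase. The 4 lower genes were AFF4, CCNT1, SUPT4H1 and HEXIM1. AFF4 averaged 2169.95 ± 77.1 in R320* and 2961 ± 135 in WT (log2 fold change -0.45, limma adjusted p = 9.34e-07), and CCNT1, the cyclin of CDK9, 1789 ± 80.1 in R320* and 2370.3 ± 46.4 in WT (log2 fold change -0.41, limma adjusted p = 3.46e-06). Among 12 RNA polymerase II subunits 2 were higher and 4 lower (median -0.01), and the higher count was 1 without R320* replicate 1, WT replicate 1, WT replicate 2 or the intensity trend and 4 with upper quartile scaling. POLR2A, the catalytic subunit, averaged 4072 ± 58.9 in R320* and 5592 ± 54.2 in WT (log2 fold change -0.46, limma adjusted p = 2.55e-08), and POLR2K averaged 1525 ± 76.4 in R320* and 1856 ± 35.3 in WT (log2 fold change -0.28, limma adjusted p = 0.000293).

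Among the BET proteins, which bind acetylated histones, BRD2 averaged 607 ± 115 in R320* and 317 ± 84.6 in WT (log2 fold change 0.96, limma adjusted p = 0.000172), whereas its RPKM was 103 ± 4.99 in R320* and 103 ± 5.52 in WT (log2 fold change 0.01, limma adjusted p = 0.897, within 1.80e-07 to 0.921 over its alternatives). NELFE, a subunit of the factor that holds paused polymerase, had 15.7, 413 and 25.7 in the R320* libraries, against 24.1, 36.9 and 24.3 in the WT libraries (log2 fold change 0.98, limma adjusted p = 0.308), whereas its RPKM was 73.6 ± 1.11 in R320* and 75.2 ± 1.23 in WT (log2 fold change -0.03, limma adjusted p = 0.554). BRD2, SMARCB1 and NELFE thus had few normalized counts beside their RPKM, NELFE was singled out after its values were seen, and the cause was not tested.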

How the data were processed

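RNA-seq of 6 K562 libraries was used, 3 with RUNX1 R320* and 3 WT, grouped by GEO's titles. The submitters' processing notes name hg38 and the tools HISAT2, featureCounts, DESeq2 and Salmon; the sources used here give no versions or parameters, nor which tool made which table. The deposited signal values are normalized read counts per Entrez gene, which the authors divided by 1 factor per library: 100% of values were whole multiples (within 1e-06) of the smallest value above 0, worth 1 read. The deposited RPKM values, named so by the authors, cover Ensembl genes. Every gene is listed there with a span of 4000 bases, so the length used for scaling is not given. RefSeq (GRCh38.p14) gave symbols for 27745 Entrez identifiers, and GENCODE 29 paired all 42 members' identifiers.

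Log2(normalized count + 1) was fitted with limma 3.58.1 (R 4.3.3; empirical Bayes, intensity trend), and log2(RPKM + 0.1) likewise, with Benjamini-Hochberg adjustment over all genes tested. The fold of a low gene is understated on these scales. Ratios used exact permutation tests (SciPy 1.17.1). The method was tested on simulated data. Values in every library are given for the kinase module, the non-Mediator members, MED1, MED14 and called MED genes, and for up to 2 genes per other list with the smallest adjusted p. Members and lists were chosen with earlier results of these data known. Alternatives were other pseudocounts, filters, scalings and variance models, a block for the replicate number, leaving out 1 library at a time, and the RPKM table; ratios in normalized counts were added after seeing the data. Alleles and isoforms were not analysed here. Results of some genes of the lists are not reported here.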

Additional observations from a re-analysis of the deposited data

How the results depend on the processing

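Against 7 members called higher and 13 lower, leaving out each library gave 6 to 9 higher and 11 to 14 lower. For the other lists (28 higher and 15 lower) it gave 20 to 24 higher and 14 to 15 lower. Members called lower numbered 8 in RPKM with a pseudocount of 1 and 8 without a filter. The other lists' higher count was 11 in RPKM, 11 with a pseudocount of 1 and 9 without a filter. The members' median log2 fold change was 0.02 with upper quartile scaling and -0.0373 to -0.00777 with a library left out. Samples sharing a replicate number did not deviate together (correlations 0.03, -0.00312 and -0.00325). No pairing by number was seen, but these values cannot exclude a shared culture or preparation. With the replicate block 9 members were higher and 14 lower.

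Leaving out a library moved the log2 ratio change of CREBBP to EP300 from -0.0213 to 0.30, reversed without R320* replicate 3, and gave -0.85 to -0.75 for CDK19 to CDK8, -0.63 to -0.49 for KMT2D to KMT2C, -0.27 to -0.22 for MED13L to MED13, -0.56 to -0.47 for NCOA2 to NCOA1 and 0.43 to 0.50 for NCOA3 to NCOA1. Of 738 member fold changes under alternatives, 655 kept direction and side of the threshold, 32 lost and 25 gained a call, and 26 reversed. Those that reversed were CREBBP (-0.0286 to 0.0784 with a library left out), KDM6A (0.21 under RPKM, RPKM without a filter, 0.20 under RPKM with a pseudocount of 1), KMT2C (0.0272 under RPKM, RPKM without a filter, 0.0258 under RPKM with a pseudocount of 1), MED12 (-0.00903 to 0.0494 with a library left out), MED13 (-0.00213 under TMM scaling, -0.0197 under quantile normalization, -0.0349 under RPKM, RPKM without a filter, -0.0328 under RPKM with a pseudocount of 1, -0.0368 to 0.0478 with a library left out), MED16 (-0.00844 to 0.0422 with a library left out), MED20 (0.0247 under upper quartile scaling, 0.0317 under quantile normalization, -0.0378 to 0.0427 with a library left out), MED25 (0.00407 under upper quartile scaling, -0.0472 to 0.0128 with a library left out) and MED4 (-0.0106 to 0.12 with a library left out); of these KDM6A alone was called as reported. The cause of these changes was not tested. The count tests edgeR and DESeq2 were planned and not run. Depth limits MED12L, whose reads were under the floor.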
